A study of Mus musculus with 12 samples.

Results

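A set of 9 genes of catecholamine signalling was followed in mouse hearts carrying changes in Lemd2, which encodes a protein of the inner nuclear membrane. They are the alpha1-adrenergic receptors Adra1a and Adra1b, the beta-adrenergic receptors Adrb1 and Adrb3, the adenylyl cyclases Adcy5, Adcy6 and Adcy8, and the phosphatase inhibitors Ppp1r1a and Ppp1r1b. They were chosen by symbol, with earlier results of these data known, as 9 of the 24062 gene rows of a count table. All 9 had counts. RNA-Seq of polyA RNA was performed on 12 whole hearts, 3 per group. The adult set held hearts of 2-month-old mice, either Lemd2 WT or Lemd2 KI/KI, the latter homozygous for the knock-in allele c.T38>G. The P1 set held hearts taken at postnatal day 1 from Lemd2-floxed mice, whose exon 1 lies between loxP sites, and from Lemd2 cKO mice, which carry the floxed allele together with a Myh6-Cre transgene. That transgene expresses Cre from the promoter of the cardiac alpha-myosin heavy chain, so other cells of the heart keep the gene. Neither P1 group carried the Cre transgene without the deletion, and an effect of the transgene itself cannot be told apart from loss of Lemd2. Both lines began as edited zygotes whose founders were crossed to C57BL/6N mice.

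Noradrenaline and adrenaline act on the heart through G protein-coupled receptors. Beta receptors couple to Gs, which turns on adenylyl cyclase. The cyclic AMP that it makes activates protein kinase A (PKA), which phosphorylates calcium-handling and contractile proteins. Alpha1 receptors couple to Gq and phospholipase C and are known for inotropic and growth responses of the cardiomyocyte. PKA also phosphorylates the inhibitors encoded by Ppp1r1a and Ppp1r1b, which then block protein phosphatase 1, the enzyme that removes phosphate from many of the same substrates.

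Values below are counts-per-million levels (CPM), the share of a library's counted reads that fell on a gene, with each library scaled by TMM factors over the 12 hearts. Library totals ranged from 37063669 to 44789753 counts, and 3 counts, taken as the floor, were worth 0.0603 to 0.0962 CPM. The floor covers counting error only. Fold changes and adjusted p-values are from edgeR's quasi-likelihood test on the 6 hearts of a comparison, adjusted over all genes tested, and a gene was called at an adjusted p under 0.05. As a check of the labels, Lemd2 was read at 33.2 ± 1.42 CPM in WT, 25.2 ± 0.419 in KI/KI, 24.9 ± 0.444 in floxed and 10.4 ± 3.35 in cKO hearts (SD, n = 3), and it fell in cKO hearts (log2 fold change -1.27, edgeR adjusted p = 0.0159). Without floxed heart 1 or 2 that adjusted p was 0.0816 or 0.0621. The count covers the whole gene and not the deleted exon alone. The summed level of 6 cardiomyocyte markers was 75900 to 86310 CPM in WT, 58370 to 76640 in KI/KI, 44090 to 50720 in floxed and 39440 to 42730 in cKO hearts, so cardiomyocyte transcripts were abundant in every library. Lung epithelium markers summed to 99.6 CPM in WT heart 3, to 0.128 and 0.0915 CPM in the other WT hearts, and to 0.140 to 38.6 CPM elsewhere. In bulk tissue, fewer cells of a type and less RNA per cell cannot be told apart.

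The phosphatase inhibitors share the stretch around the threonine that PKA phosphorylates, and it is shown because both members are defined by it. The stretch was read from the GENCODE M21 transcripts of each gene, and capitals mark the threonine codon, number 35 of 171 codons in Ppp1r1a and number 34 of 194 in Ppp1r1b. Of the 33 bases, 23 were identical, and 9 of the 11 codons gave the same amino acid.
Ppp1r1a: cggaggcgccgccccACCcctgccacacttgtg
Ppp1r1b: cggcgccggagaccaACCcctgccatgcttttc

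RefSeq promoters of the GRCm38.p6 build were at hand for 3 of the 9 members. Those of Adra1b and Adrb1 are shown because they belong to the receptor with the smallest adjusted p in cKO hearts and to one that was called in no comparison. Each run gives the 250 bases before a transcription start, and capitals mark TGACG, the core of a cyclic AMP response element, or GGGCGG, a GC box, on either strand. Adra1b has 2 starts on the minus strand of chromosome 11. The upstream one, whose window is chr11:43901238-43901487, had 41.6% G and C and neither motif. The internal window, chr11:43836490-43836739, lies within the span of the gene in GENCODE and had 72.8% G and C with 1 GC box. The Adrb1 window, chr19:56721867-56722116 on the plus strand, had 74% G and C, 1 TGACG and 1 GC box. Of 32817 promoter windows of this length, 17.75% held TGACG and 32.7% held GGGCGG. Bases downstream of the start were found in GENCODE transcripts of the gene for the upstream Adra1b start, but not for the internal Adra1b start or the Adrb1 start. The Adrb1 window ends before the start of that gene in GENCODE, at 56722199. The deposited count is per gene and does not separate the starts of Adra1b.
Adra1b upstream start: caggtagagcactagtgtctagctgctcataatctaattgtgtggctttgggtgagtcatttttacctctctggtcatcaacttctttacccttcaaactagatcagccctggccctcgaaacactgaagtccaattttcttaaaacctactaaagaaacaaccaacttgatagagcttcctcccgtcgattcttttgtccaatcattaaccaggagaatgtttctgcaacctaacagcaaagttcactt
Adra1b internal start: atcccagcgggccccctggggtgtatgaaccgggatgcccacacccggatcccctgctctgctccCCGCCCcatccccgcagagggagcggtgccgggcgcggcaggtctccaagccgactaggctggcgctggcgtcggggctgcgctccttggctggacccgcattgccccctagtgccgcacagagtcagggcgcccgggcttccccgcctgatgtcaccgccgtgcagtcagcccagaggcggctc
Adrb1 start: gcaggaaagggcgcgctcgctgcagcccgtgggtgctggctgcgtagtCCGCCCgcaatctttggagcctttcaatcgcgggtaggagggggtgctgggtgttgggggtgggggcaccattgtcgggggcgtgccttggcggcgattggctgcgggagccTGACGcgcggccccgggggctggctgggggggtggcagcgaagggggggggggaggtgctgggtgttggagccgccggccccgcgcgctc

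The members differed widely in abundance. Per kilobase of exon, Adcy6 had the highest mean level in every group, from 46.8 CPM per kb in cKO to 68.6 in WT hearts, and Adcy5 was next at 19.7 to 22.1. Adra1b and Adrb1 followed among adult hearts at 7.92 to 12.8 and 8.29 to 9.18 CPM per kb. Ppp1r1a reached 11.5 ± 0.773 CPM per kb in floxed hearts (SD, n = 3), beside 11.1 ± 1.09 for Adra1b in the same hearts. Adrb3 and Adcy8 stayed under 0.5 CPM per kb in all 4 groups. The plot of members by heart shows the same genes on the CPM scale, where Adra1a, Adcy8 and Ppp1r1a separate the adult from the P1 hearts, and Adra1a, Adra1b, Adcy6, Ppp1r1a and Ppp1r1b separate the genotypes within each age.

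**Figure D1:**
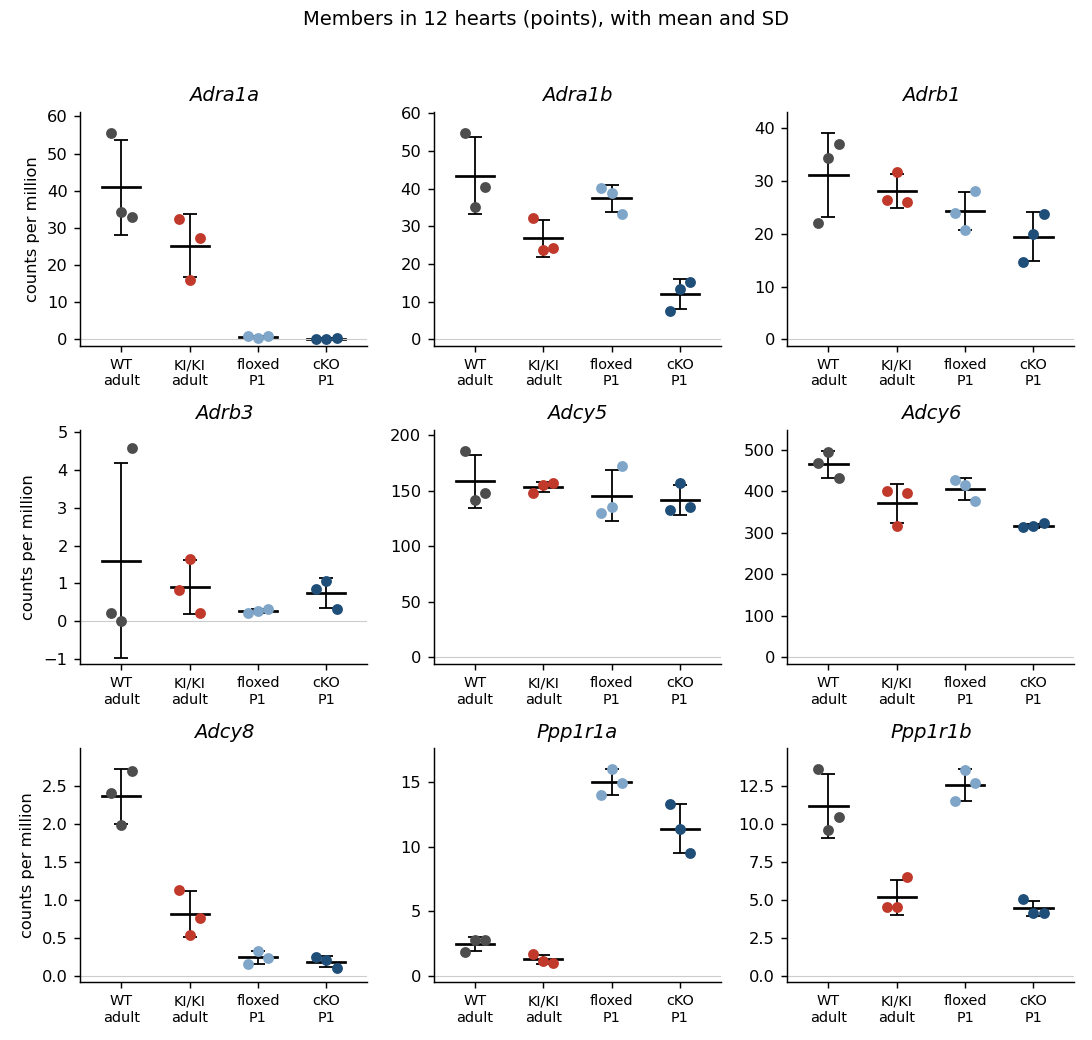
Level of each of the 9 members in each of the 12 hearts, in CPM (linear axes, a different scale in each panel), with the group mean as a horizontal line and the SD as a bar (n = 3). Adra1a lies under 1 CPM in all 6 P1 hearts and at 16.1 CPM or more in all 6 adult hearts, and Adra1a, Adra1b, Adcy6, Ppp1r1a and Ppp1r1b are lower in KI/KI than in WT and lower in cKO than in floxed hearts with no overlap.

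Adra1a encodes the alpha1A receptor, a Gq-coupled receptor of the cardiomyocyte, at chr14:66635251-66771168 on the plus strand of GRCm38. WT hearts held 55.6, 34.2 and 33.0 CPM of it, against 0.816, 0.437 and 0.786 CPM in floxed hearts. The adult WT hearts were all far above the P1 floxed hearts. Adra1a was higher in adult WT than in P1 floxed hearts by a log2 fold change of 5.90 ± 0.31 (SE, edgeR adjusted p = 4.48e-06), a ratio of means of 60.2. In the KI/KI hearts it was read at 32.5, 16.1 and 27.2 CPM, each under the lowest WT heart by a narrow margin for the first. That difference was not called (log2 fold change -0.69 ± 0.30, edgeR adjusted p = 0.319). At P1 the cKO hearts were read at 0.141, 0.104 and 0.314 CPM, which were 5 to 13 counts a heart beside 20 to 37 counts in the floxed hearts. Adra1a fell in the cKO hearts (log2 fold change -1.88 ± 0.50, edgeR adjusted p = 0.0458), and the groups did not overlap. This call was lost without floxed heart 1, 2 or 3 or cKO heart 4 or 5, with adjusted p from 0.0747 to 0.167, and with no filter on low counts (0.0516).

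Adra1b encodes the alpha1B receptor, the more abundant Gq-coupled subtype of the mouse heart in these libraries, at chr11:43774606-43901210 on the minus strand. Its levels were 54.8, 35.2 and 40.4 CPM in WT hearts and 40.1, 39.0 and 33.2 CPM in floxed hearts, so the control hearts of both ages overlapped. In the cKO hearts Adra1b was read at 7.60, 13.4 and 15.2 CPM, all under the lowest floxed heart. Adra1b fell in cKO hearts to 0.323 times the floxed mean (log2 fold change -1.64 ± 0.24, edgeR adjusted p = 0.00983). Without floxed heart 1 the adjusted p was 0.0619 at a log2 fold change of -1.59, and the call held without each of the other 5 hearts. The KI/KI hearts, at 32.3, 23.7 and 24.4 CPM, were also under the lowest WT heart. The difference in adult hearts was not called by edgeR (log2 fold change -0.69 ± 0.19, adjusted p = 0.236), and DESeq2 gave an adjusted p of 0.0212. Between adult WT and P1 floxed hearts the log2 fold change was 0.21 ± 0.16 (edgeR adjusted p = 0.275).

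Adra1d, the third alpha1 receptor gene, was also low in cKO hearts at 0.523, 1.31 and 1.91 CPM against 2.58 to 3.70 CPM in floxed hearts, but it was not called (log2 fold change -1.41 ± 0.43, edgeR adjusted p = 0.0683). The adjusted p was 0.0122 with DESeq2, 0.0482 with limma-voom, 0.0138 in the fit of all 12 hearts and 0.0251 without cKO heart 6. Adra1d was higher in adult WT than in floxed hearts (0.79 ± 0.18, 0.00551), a call lost with library totals alone (0.0966) and in the fit of all 12 hearts (0.0518). The summed level of the 3 alpha1 genes per kilobase was 20.5 ± 4.58 CPM per kb in WT, 13.2 ± 2.36 in KI/KI, 12.9 ± 1.05 in floxed and 4.25 ± 1.54 in cKO hearts (SD, n = 3). Adra1a made up 20.2% to 24.7% of that sum in WT hearts and 16.4% to 24.8% in KI/KI hearts, but 0.387% to 0.764% in floxed hearts. Adra1b supplied 83.3% to 89.1% of the sum in floxed and 81.2% to 88.5% in cKO hearts. In the share of Adra1a the ages did not overlap, whereas the genotypes did within each age. These shares depend on the gene length used. With the longest transcript in place of all exons, the mean share of Adra1a in WT hearts was 37.0% instead of 22.6%.

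**Figure D2:**
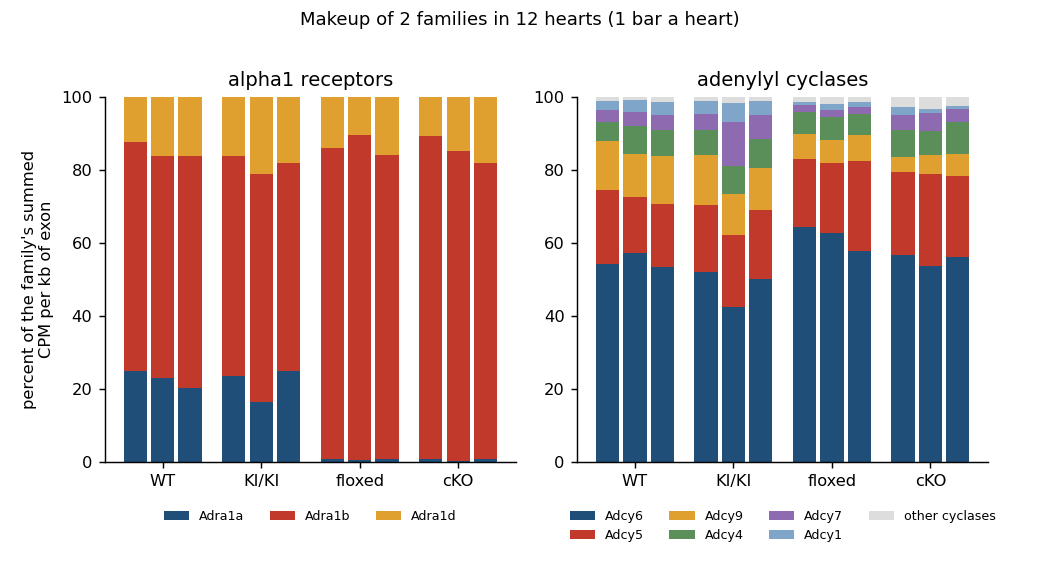
Share of each gene in the summed level of its family, in percent of the summed CPM per kb of exon, for the 3 alpha1 receptors and the 10 adenylyl cyclases, with 1 stacked bar for each of the 12 hearts. Adra1a is visible in the adult bars and at under 1% in the P1 bars, and Adcy6 is the largest cyclase share in every heart, from 42.5% to 64.5%.

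Adrb1 encodes the beta1 receptor, the main Gs-coupled adrenergic receptor of the cardiomyocyte, at chr19:56722199-56733113 on the plus strand. It was read at 21.9, 34.4 and 36.9 CPM in WT and 26.4, 31.7 and 26.0 CPM in KI/KI hearts. At P1 it was read at 24.0, 20.8 and 28.1 CPM in floxed and 14.6, 20.0 and 23.8 CPM in cKO hearts. The groups overlapped in all 3 comparisons, and none was called. The log2 fold changes were -0.14 ± 0.20 for KI/KI against WT (edgeR adjusted p = 0.741), -0.33 ± 0.19 for cKO against floxed (0.264) and 0.35 ± 0.21 for adult WT against P1 floxed (0.170). Without WT heart 1, the lowest, the last of these was 0.56 with an adjusted p of 0.00920.

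The alpha2 receptor genes encode Gi-coupled receptors. Of these, Adra2a and Adra2c stayed under 0.6 CPM in every heart and Adra2b was read at 0.725 to 2.79 CPM. None of them was called where it was tested.

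Adrb3 encodes the beta3 receptor, best known from adipose tissue, at chr8:27225776-27250616 on the minus strand. It was the least even member. WT heart 3 was read at 4.58 CPM (168 counts), WT heart 1 at 0.224 CPM and WT heart 2 at 0 counts, which allows up to 0.0915 CPM. The KI/KI hearts were read at 0.833, 1.64 and 0.224 CPM. A single WT heart thus lay above the KI/KI hearts while the other two lay at or under the lowest of them. The log2 fold change in adult hearts was -0.84 ± 1.40 (edgeR adjusted p = 0.784), and without WT heart 3 it was 3.02 (adjusted p = 0.285). The 6 adipocyte markers (Adipoq, Plin1, Cidec, Lep, Ucp1 and Cfd) summed to 84.4 CPM in WT heart 3, 38.4 in KI/KI heart 5 and 19.9 in KI/KI heart 4, the 3 adult hearts with the most Adrb3, and to 3.72 to 10.5 CPM in the other adult hearts. Their part in the Adrb3 values was not tested. WT heart 3 was also the adult heart with the most lung epithelium markers, 99.6 CPM.

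At P1, Adrb3 was read at 0.227, 0.284 and 0.318 CPM in floxed and 0.865, 1.06 and 0.314 CPM in cKO hearts. A pair of the cKO hearts were above all floxed hearts and the other lay among them. The difference was not called (log2 fold change 1.44 ± 0.49, edgeR adjusted p = 0.0900), though it passed without cKO heart 6 (log2 fold change 1.79, adjusted p = 0.0156). The adipocyte markers summed to 0.106 to 1.38 CPM in floxed and 0.339 to 0.459 CPM in cKO hearts, and Lep was at 0 in all 3 cKO hearts. Between adult WT and P1 floxed hearts the log2 fold change was 2.54 ± 1.49 (adjusted p = 0.176), and without WT heart 3 it turned to -1.28 (0.266). In the annotation, 24.9% of the exon bases of Adrb3 overlap Gm45470 on the opposite strand. The strand setting of the counting is not given in the sources used here, so reads of the overlap cannot be assigned to either gene.

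**Figure D3:**
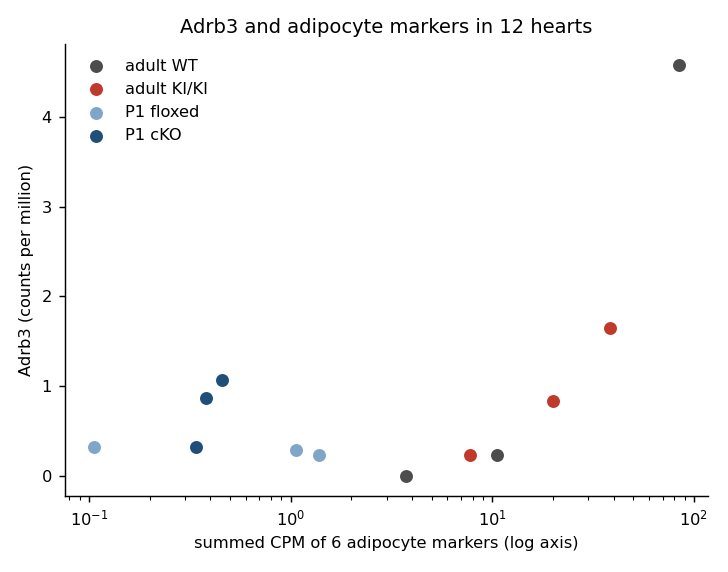
Adrb3 in CPM against the summed CPM of 6 adipocyte markers (log axis) in the 12 hearts, coloured by group. The adult hearts with most Adrb3 are those with most adipocyte markers, led by WT heart 3 at 4.58 and 84.4 CPM, whereas 2 cKO hearts have 0.865 and 1.06 CPM of Adrb3 at under 0.5 CPM of the markers.

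Adcy5 and Adcy6 encode the calcium-inhibited cyclases of the cardiomyocyte, and Adcy8 a calmodulin-stimulated cyclase known mainly from neurons and the sinoatrial node. Adcy5, at chr16:35154877-35305738 on the plus strand, was the most even member. Its means were 158.7 ± 23.8 CPM in WT, 153.5 ± 4.77 in KI/KI, 145.7 ± 23.1 in floxed and 141.7 ± 13.6 in cKO hearts (SD, n = 3). Every pair of groups overlapped in all 3 comparisons, and the log2 fold changes were -0.04 ± 0.10, -0.04 ± 0.13 and 0.12 ± 0.14, with edgeR adjusted p of 0.870, 0.843 and 0.491.

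Adcy6, at chr15:98589973-98610076 on the minus strand, was read at 467.8, 495.4 and 431.6 CPM in WT and 399.6, 317.1 and 396.0 CPM in KI/KI hearts. At P1 it was read at 427.0, 414.4 and 376.7 CPM in floxed and 313.1, 315.5 and 322.9 CPM in cKO hearts. In both sets the mutant hearts all lay under the lowest control heart. Adcy6 fell in cKO hearts to 0.781 times the floxed mean (log2 fold change -0.36 ± 0.08, edgeR adjusted p = 0.0277). The call was lost without floxed heart 1 or 2 or cKO heart 4 or 5, with adjusted p from 0.0534 to 0.121, while the log2 fold change stayed between -0.41 and -0.33. In KI/KI hearts the log2 fold change was -0.32 ± 0.11 and was not called (adjusted p = 0.261). Between the ages it was 0.19 ± 0.08 (adjusted p = 0.0665), DESeq2 gave an adjusted p of 0.0301, and scaling by library totals alone turned it to -0.22 (0.0375). Gm29331 on the opposite strand overlaps 8.92% of the exon bases of Adcy6.

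Adcy8, at chr15:64697084-64922296 on the minus strand, was a gene of few counts. It was read at 2.41, 1.98 and 2.70 CPM in WT hearts, which were 65 to 99 counts, and at 1.13, 0.531 and 0.758 CPM in KI/KI hearts, 22 to 38 counts. Each KI/KI heart was under each WT heart. The log2 fold change was -1.55 ± 0.30, the lowest among the members in adult hearts, and it was not called by edgeR (adjusted p = 0.191) but by DESeq2 (0.00191). Floxed hearts held 0.159, 0.328 and 0.234 CPM, all under the lowest WT heart, and Adcy8 was higher in adult WT hearts by a log2 fold change of 3.28 ± 0.33 (edgeR adjusted p = 7.21e-05). In cKO hearts it was read at 0.241, 0.209 and 0.0967 CPM, overlapping floxed hearts. The sinoatrial node markers Hcn4, Shox2, Isl1, Tbx3 and Tbx18 summed to 60.3 to 72.9 CPM in WT and 43.2 to 55.9 in KI/KI hearts, beside the lower Adcy8 of the latter, and to 93.6 to 97.7 in floxed hearts, where Adcy8 was lower still. In KI/KI against WT hearts 4 of these markers were tested, 1 higher and 3 lower, and none was called by edgeR. Their part in Adcy8 was not tested.

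The other cyclases put these levels in proportion. The 10 cyclase genes summed to 124.7 ± 4.80 CPM per kb in WT, 113.2 ± 3.13 in KI/KI, 97.2 ± 0.733 in floxed and 84.3 ± 2.59 in cKO hearts (SD, n = 3). Adcy6 made up 53.4% to 57.2% of the sum in WT, 42.5% to 52.1% in KI/KI, 57.6% to 64.5% in floxed and 53.7% to 56.6% in cKO hearts. Adcy5 made up 15.5% to 25.3% over all hearts. Adcy7, a cyclase abundant in blood and immune cells, rose in cKO hearts from 13.3 ± 0.289 to 24.0 ± 3.40 CPM (log2 fold change 0.84 ± 0.12, edgeR adjusted p = 0.00983). Adcy7 was read at 34.7, 90.0 and 51.5 CPM in KI/KI hearts, above the 27.7, 31.6 and 32.5 CPM of WT hearts. It was not called there by edgeR (adjusted p = 0.266), and DESeq2 gave an adjusted p of 0.0465. Macrophage markers (Adgre1, Csf1r and Cd68) summed to 32.3 to 37.1 CPM in floxed and 51.8 to 56.8 CPM in cKO hearts, and to 62.4 to 105.7 CPM in WT and 101.4 to 109.3 CPM in KI/KI hearts. Their part in the Adcy7 values was not tested.

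Adcy9 fell in cKO hearts (34.2 ± 1.36 to 22.9 ± 4.42 CPM, log2 fold change -0.58 ± 0.14, edgeR adjusted p = 0.0331) and Adcy3 rose (6.69 ± 0.745 to 10.4 ± 0.958 CPM, 0.64 ± 0.14, adjusted p = 0.0258). Adcy9 was 82.6 ± 5.21 CPM in WT hearts and was higher there than in floxed hearts (log2 fold change 1.27 ± 0.07, adjusted p = 4.50e-06), as were Adcy1 (1.69 ± 0.27, 0.00121), Adcy7 (1.19 ± 0.09, 1.94e-05) and Adcy4 (0.52 ± 0.14, 0.0117), whose call was lost with library totals alone (0.11, 0.513). Adcy2 was lower in adult WT hearts (-1.48 ± 0.31, 0.00319). Adcy10, the soluble cyclase, had at most 0.209 CPM in any heart and passed the filter in no comparison.

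Ppp1r1a encodes inhibitor-1 of protein phosphatase 1, at chr15:103530279-103538003 on the minus strand. Floxed hearts held 14.0, 16.0 and 14.9 CPM of it, against 1.80, 2.78 and 2.76 CPM in WT hearts. The adult hearts were all far lower. Ppp1r1a was lower in adult WT than in P1 floxed hearts by a log2 fold change of -2.61 ± 0.18 (edgeR adjusted p = 1.01e-05), the opposite direction to Adra1a and Adcy8. KI/KI hearts, at 1.67, 1.11 and 1.01 CPM, lay under WT hearts, and the highest of them was near the lowest WT heart. The difference was not called (log2 fold change -0.95 ± 0.28, adjusted p = 0.240). The cKO hearts, at 13.3, 11.4 and 9.53 CPM, lay under the floxed hearts and were not called either (-0.39 ± 0.15, adjusted p = 0.118).

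Ppp1r1b encodes DARPP-32, the inhibitor named for its abundance in dopamine-responsive neurons, at chr11:98348404-98357796 on the plus strand. It was read at 13.6, 9.58 and 10.5 CPM in WT and 4.49, 4.54 and 6.51 CPM in KI/KI hearts. At P1 it was read at 11.5, 13.6 and 12.7 CPM in floxed and 5.03, 4.15 and 4.16 CPM in cKO hearts. In both sets every mutant heart was well under every control heart, and the control hearts of the ages overlapped. Ppp1r1b fell in cKO hearts to 0.353 times the floxed mean (log2 fold change -1.50 ± 0.14, edgeR adjusted p = 0.00494), and the call held without each heart in turn, with adjusted p up to 0.0461. In adult hearts the ratio of means was 0.462, the log2 fold change -1.11 ± 0.20 and the edgeR adjusted p 0.187, and DESeq2 gave 1.67e-04. A fit of all 12 hearts, which shares the spread of the 4 groups, gave an adjusted p of 0.0418 for the same contrast. Between the ages the log2 fold change was -0.17 ± 0.14 (adjusted p = 0.320). The noncoding gene 1700003D09Rik on the opposite strand overlaps 15.7% of the exon bases of Ppp1r1b.

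**Figure D4:**
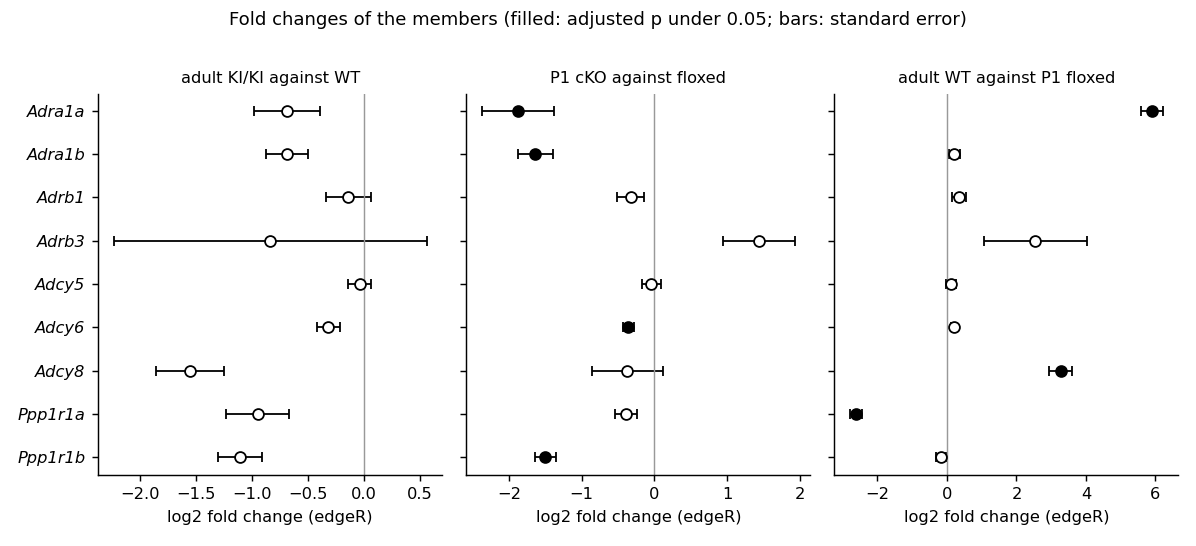
Log2 fold change of the 9 members in the 3 comparisons, from edgeR, with the standard error as a bar, filled where the adjusted p was under 0.05 (each panel has its own axis). All 9 points lie under 0 for KI/KI against WT with none filled, 4 filled points lie under 0 for cKO against floxed, and Adra1a, Adcy8 and Ppp1r1a are filled between the ages.

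Counted as a group in adult KI/KI against WT, 0 of the 9 members were called by edgeR, as were 0% of the 14592 genes tested. At an unadjusted p under 0.05 there were 5 members (Adra1b, Adcy6, Adcy8, Ppp1r1a and Ppp1r1b) where 16% of all genes passed, and the groups did not overlap for 6 members, with Adra1a added, where 22% of all genes did not. DESeq2 called 3 members (Adra1b, Adcy8 and Ppp1r1b) and 3.54% of all genes. All 9 log2 fold changes were negative, and their median was -0.69 where that of all genes was 0.0023. The members were chosen with earlier results of these data known, so their direction in either mutant is a description only. Of 6 other cyclase genes tested in adult hearts, 5 were higher in KI/KI and 1 lower, with a median of 0.27. Of 4 other adrenergic receptor genes tested, 1 was higher and 3 lower, with a median of -0.20. Summed cardiomyocyte markers were lowest in KI/KI heart 5, at 58370 CPM, which also had the lowest Adra1a, Adra1b, Adcy6 and Adcy8 of the adult hearts. Adcy5, Ppp1r1a and Ppp1r1b were lowest in other hearts. Of the KI/KI hearts, heart 5 had the most Adrb1 (31.7 CPM) and Adrb3 (1.64 CPM). Its atrial and fibroblast markers, at 9649 and 1775 CPM, were the highest of the adult hearts. The part of these markers in the levels of the members was not tested.

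In P1 cKO against floxed hearts, 4 of the 9 members were called, Adra1a, Adra1b, Adcy6 and Ppp1r1b, beside 16.5% of 15317 genes. All 4 were lower, as were 7.31% of all genes. Over all genes the calls were 1401 higher and 1119 lower, and 1083 higher and 1395 lower with library totals alone. The groups did not overlap for 5 members, the fifth being Ppp1r1a, and for 39.3% of all genes. The median log2 fold change was -0.37 over the members and -0.0048 over all genes. Without floxed heart 1 a single member was called, Ppp1r1b. Without floxed heart 2, cKO heart 4 or cKO heart 5 there were 2, Adra1b and Ppp1r1b, and without cKO heart 6 there were 5, with Adrb3 added as higher. Fibroblast markers summed to 1666 to 2081 CPM in cKO and 1397 to 1509 CPM in floxed hearts. Of the 4, 2 were called higher, and the other 2 had log2 fold changes under 0 and were not called. Smooth muscle markers summed to 1372 to 2740 CPM in cKO and 1121 to 1512 CPM in floxed hearts, which overlapped. Of these 4, 2 were called higher and 1 had a log2 fold change under 0. Schwann cell markers summed to 6.97 to 8.67 CPM in cKO and 10.6 to 31.7 CPM in floxed hearts, with 2 of 3 called lower. Atrial markers summed to 9559, 6606 and 2609 CPM in cKO hearts 4, 5 and 6 and to 1693 to 2900 CPM in floxed hearts, which overlapped. Of these 4, 3 had log2 fold changes above 0, 1 of them called, and 1 was under 0. The part of these markers in the members' levels was not tested.

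Between adult WT and P1 floxed hearts, 3 of the 9 members were called, Adra1a and Adcy8 as higher in adults and Ppp1r1a as lower, beside 64.7% of 15183 genes. The groups did not overlap for 4 members, with Adcy6 added, and for 70.9% of all genes. Age, the floxed allele and anything else that differed between the adult and P1 sets cannot be told apart in this comparison. It also depends on the scaling. With library totals alone the median log2 fold change of all genes moved from -0.04 to -0.45 and the calls went from 4775 higher and 5051 lower to 2791 higher and 8145 lower. The 3 members kept their calls under that scaling, with log2 fold changes of 5.49, 2.88 and -3.01, and Adcy6 and Ppp1r1b were then called as lower in adults. The comparison shares its WT hearts with the first comparison and its floxed hearts with the second.

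The difference between the cKO and KI/KI effects was tested as an interaction over the 12 hearts. No member was called by edgeR, and 2.51% of 15729 genes were. DESeq2 called none of the members and 1310 of 14877 genes. An unadjusted edgeR p under 0.05 was found for 3182 of all 15729 genes and for 1 member, Adra1b. Its effect was lower in the cKO by a log2 difference of -0.94 ± 0.34 (adjusted p = 0.152). For Adcy6 the difference was -0.03 ± 0.14, for Ppp1r1b -0.39 ± 0.25 and for Adcy8 1.18 ± 0.57, with adjusted p of 0.928, 0.415 and 0.273.

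The rest of the pathway was read from a list of 100 genes in 12 roles, from G proteins to PKA substrates. In adult KI/KI hearts 96 were tested and none was called by edgeR, while 25 had an unadjusted p under 0.05, beside 16% of all genes, and DESeq2 called 8, beside 3.54%. Their median log2 fold change was -0.05. In cKO hearts 22 of 96 were called, 8 higher and 14 lower, with a median of 0.05, beside the 16.5% called over all genes. Of the 10 PKA substrates of the cardiomyocyte, 7 fell, beside the 7.31% of all genes that fell, and the other 3 had log2 fold changes of 0.02 to 0.07. The substrate gene Tnni3 is also 1 of the 6 cardiomyocyte markers, whose sum was 39440 to 42730 CPM in cKO and 44090 to 50720 CPM in floxed hearts, and their part in these values was not tested. Pln, which encodes the SERCA inhibitor phospholamban, fell from 4112 ± 325 to 1930 ± 388 CPM (log2 fold change -1.09 ± 0.15, edgeR adjusted p = 0.00878), and Ryr2, the calcium release channel, by a log2 fold change of -0.82 ± 0.13 (0.0122). Rgs2, a GTPase-activating protein for Gq, fell by -0.93 ± 0.23 on the log2 scale (0.0382), and Pde1c, a calmodulin-dependent phosphodiesterase, by -0.92 ± 0.21 (0.0291).

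Th, which encodes tyrosine hydroxylase, had the lowest fold change of the list in cKO hearts (log2 fold change -3.19 ± 0.80, edgeR adjusted p = 0.0395). The log2 fold change was -4.61 without cKO heart 4 and -2.68 without cKO heart 6. Th rested on few counts, with 0.385, 0.851 and 0.573 CPM in floxed and 0.141, 0.0417 and 0 CPM in cKO hearts. The sympathetic neuron markers Th, Dbh, Slc18a2 and Slc6a2 summed to 12.8 to 19.8 CPM in floxed and 7.26 to 13.8 CPM in cKO hearts. After Adcy7, the called genes with the largest rises were Prkar1b, a regulatory subunit of PKA (0.77 ± 0.16, adjusted p = 0.0248), Prkcd, a protein kinase C (0.69 ± 0.13, 0.0190), Adcy3 and Gnai3, a Gi alpha subunit (0.43 ± 0.10, 0.0289). Calls on the list were sensitive to single hearts: 0 genes were called without floxed heart 1, 4 without cKO heart 5, 5 without floxed heart 2, 7 without floxed heart 3 and 14 without cKO heart 4. Among the genes named here, Adcy7, Pln and Ryr2 lost their calls only without floxed heart 1, with adjusted p of 0.0669, 0.0565 and 0.0665. Adcy3, Adcy9, Gnai3, Pde1c, Prkcd and Th lost theirs without any 1 floxed heart and without cKO heart 5, and Prkar1b and Rgs2 also without cKO heart 4, with adjusted p up to 0.146.

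Between the ages 64 of the 96 pathway genes tested were called, 41 higher and 23 lower in adult WT hearts, a share close to the 64.7% of all genes, and the median over the list was a log2 fold change of 0.30. With library totals alone 66 were called, 39 of them lower, beside 10936 of all 15183 genes, 8145 of them lower. Among the largest rises were those of Slc22a3, a low-affinity catecholamine transporter (3.67 ± 0.17, edgeR adjusted p = 2.00e-06), Maob, a monoamine oxidase (3.15 ± 0.09, 3.63e-07), Hspb6, a small heat shock protein phosphorylated by PKA (2.73 ± 0.13, 2.31e-06), and Rapgef4, the cyclic AMP sensor Epac2 (2.35 ± 0.12, 3.03e-06). The largest drops were those of Th (-3.54 ± 0.73, 0.00309, and -5.0 without WT heart 3), Gnai1, a Gi alpha subunit (-2.12 ± 0.13, 5.79e-06), Adcy2, Grk3, a receptor kinase (-1.15 ± 0.13, 1.31e-04), and Akap12, a PKA anchor (-1.07 ± 0.10, 3.70e-05).

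**Figure D5:**
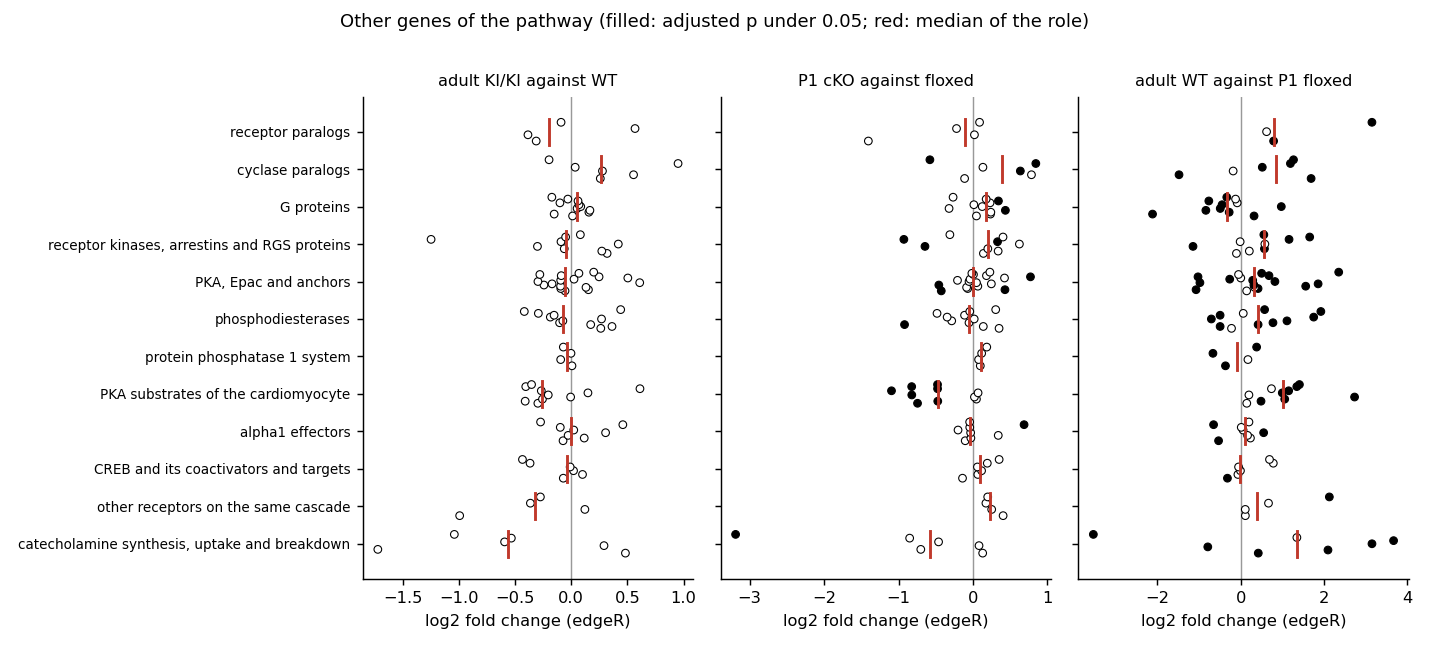
Log2 fold change (edgeR) of the other pathway genes in 12 roles for the 3 comparisons, 1 point a gene, filled where the adjusted p was under 0.05, with the median of each role in red. No point is filled for KI/KI against WT, 7 of the 10 PKA substrates are filled under 0 for cKO against floxed, and 64 points are filled between the ages.

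The genes with patterns most like each member were ranked by Pearson's r of log2 CPM over the 12 hearts, among 15729 genes. These hearts fall into 4 groups of shared age and genotype, so r mostly ranks the group pattern, and it is given as a description. Adra1a was nearest to Hrc, a histidine-rich calcium-binding protein of the sarcoplasmic reticulum (r = 0.997), Det1 and the sodium channel gene Scn4a. Adra1b was nearest to Dcaf4 (0.986), Kcnh2, the gene of the hERG potassium channel (0.985), and LOC100505025. Adcy8 was nearest to the laminin gene Lama5 (0.980), Cntfr and 2210407C18Rik, and Ppp1r1a to the ephrin receptor gene Epha3 (0.988), Tmem47 and Stfa2l1.

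For Adcy6 the nearest genes were Nadk2 (r = 0.969), Erc1 and Tspan3, and for Adrb1 they were the hyaluronan synthase gene Has3 (0.946), Zfp133-ps and Efna1. Adrb3 was nearest to Zc3h12d (0.906), Slc25a1 and Gpr137b, and Ppp1r1b to Gm15787 (0.903), 3110043O21Rik and Dhrs7. Adcy5, the most even member, had the lowest best match, the sarcoplasmic reticulum gene Srl (0.781), followed by Ube3c and Ino80. No member was among the 3 nearest genes of another.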

How the data were processed

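Whole-heart polyA RNA of 12 mice, 3 per genotype, was sequenced by the authors as 75-cycle single-end reads from a KAPA mRNA HyperPrep library. Per the labels and the study's methods, the authors ran Trim Galore, STAR 2.7.2b against mm10 (iGenomes) and SAMtools 1.9, and HTSeq then gave raw read counts per gene symbol, which the authors deposited unscaled. The HTSeq version and its strand setting are not given in the sources used here.

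From the deposited counts, each comparison was fitted on its own 6 hearts in R 4.3.3 with edgeR 4.0.16 (TMM, filterByExpr, robust quasi-likelihood test, Benjamini-Hochberg adjustment over all genes tested), and the difference between models on all 12. DESeq2 1.42.0, voom in limma 3.58.1, RLE factors, library totals alone, other filters, 1 fit of all hearts, a replicate block and leaving out each heart were alternatives. The labels give 3 mice per genotype, so the spread is that between mice. No 2 libraries held identical counts. CPM used TMM factors over the 12 hearts, and log2 CPM a prior count of 1. CPM per kb used the union of exons in GENCODE M21 (GRCm38). All 9 symbols matched that annotation.

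The members and the pathway and marker lists were chosen with earlier results of these data known. Named were all 9 members, the other adrenergic receptor and cyclase genes (1 gene is not reported here), Lemd2, up to 5 called pathway genes in each direction per comparison by fold change, and the 3 genes most like each member.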

Additional observations from a re-analysis of the deposited data

Results flagged for a closer look

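Adora1, which encodes the Gi-coupled adenosine A1 receptor of the same cascade, was called by edgeR as differing in effect between the models, 1 of the 98 pathway genes tested beside 2.51% of all genes. On the same list 19 genes had an unadjusted p under 0.05, beside 3182 of all 15729 genes. DESeq2 called 8 of the list, beside 1310 of 14877 genes. Adora1 was read at 32.1, 31.8 and 23.3 CPM in WT and 16.2, 14.2 and 13.2 CPM in KI/KI hearts, and at 27.3, 26.2 and 27.0 CPM in floxed and 43.5, 41.5 and 21.1 CPM in cKO hearts. The KI/KI hearts all lay under the WT hearts, whereas 2 cKO hearts lay above the floxed hearts and the other below them. The interaction test in edgeR gave a log2 difference of 1.40 ± 0.32 between the cKO and KI/KI effects (adjusted p = 0.0488). Neither effect was called on its own by edgeR (log2 fold change -0.99 and adjusted p = 0.186 in KI/KI hearts, 0.40 and 0.315 in cKO hearts), and DESeq2 called the first (adjusted p = 1.03e-06). The adjusted p was over 0.05 without any 1 of the hearts other than cKO heart 6 (0.0512 to 0.128), with no filter on low counts (0.0605), with limma-voom (0.0811) and with the replicate block (0.103). Without cKO heart 6, the one under the floxed hearts, it was 0.00264, and DESeq2 gave 0.00146.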

How the results depend on the processing

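Values of Adra1a in P1 hearts rested on 5 to 37 counts a heart and those of Adcy8 on at most 99, and those of Adrb3 in WT hearts ranged from 0 to 168 counts. Of the 9 members, DESeq2 called 3 in KI/KI hearts and the fit of all 12 hearts 1. Of the pathway list DESeq2 called 8, and leaving out a heart gave 0 to 1 (1 without KI/KI heart 4). In cKO hearts leaving out a heart gave 1 to 5 members and 0 to 25 pathway genes. Library totals alone gave 5 members between the ages, beside 10936 of all 15183 genes. Over all genes, the calls in KI/KI hearts were 0, against 518 with DESeq2, 27 with 12 hearts in 1 fit, 2 with no filter and 0 to 52 with a heart left out. In cKO hearts 2520 genes became 3871 with 12 hearts in 1 fit and 129 to 3385 with a heart left out. The difference between the models called 395 genes, against 1310 with DESeq2, 608 with library totals alone (104 higher and 504 lower, at a median of -0.15 on the log2 scale) and 50 to 935 with a heart left out.

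The log2 fold changes whose sign turned were those of Adrb3, Adcy5, Adrb1, Adra1b and Adcy6, and the cause was not tested beyond the values given. With limma-voom Adrb3 was 1.40 in KI/KI hearts, -0.083 between the ages and -0.11 in the difference between the models. With library totals alone Adcy5 was 0.0373 in KI/KI hearts and -0.14 in the difference, and between the ages Adra1b was -0.20, Adrb1 -0.0413, Adcy5 -0.28 and Adcy6 -0.22. With at least 10 counts in every library Adcy5 was -0.00165 in the difference, and 1 to 3 of the members could not be tested in each comparison.

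With each heart left out, Adrb3 ranged from -1.63 to 3.02 in KI/KI hearts, from -1.28 to 3.11 between the ages and from -1.57 to 3.04 in the difference. Adrb1 ranged from -0.34 to 0.00591 in KI/KI hearts and from -0.34 to 0.0258 in the difference. Adcy5 ranged from -0.12 to 0.083 in KI/KI hearts, from -0.12 to 0.0952 in cKO hearts, from -0.000233 to 0.27 between the ages and from -0.12 to 0.15 in the difference, where Adcy6 ranged from -0.13 to 0.0287. Of the members' alternative values in cKO hearts, 102 kept direction and call, 11 lost the call, 1 gained it and 1 turned its sign.

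With the longest transcript as the gene length, the mean share of Adra1a in the alpha1 sum was 37.0% in WT, 35.5% in KI/KI, 1.22% in floxed and 1.03% in cKO hearts. In the cyclase sum that of Adcy5 was 17.8% in KI/KI hearts and that of Adcy6 57.1% in cKO hearts.

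Replicate numbers 1 to 3 are shared by WT and floxed hearts and 4 to 6 by KI/KI and cKO hearts, so no paired analysis was possible within an age. Same-numbered WT and floxed hearts deviated from their group means with correlations of -0.25, -0.29 and -0.56. Deviations within a group of 3 hearts are tied to each other, so these values cannot show whether same-numbered hearts shared any handling. The numbers were used only to name the hearts, except in the replicate block. With the replicate block 3 members, 63 pathway genes and 8966 genes in all were called between the ages, against 3, 64 and 9826 without it. In the difference between the models no member and 0 genes were called with the block, against 395, while 2665 had an unadjusted p under 0.05.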
